A study of Mus musculus with 6 samples.

Results

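The Id family of the mouse, Id1, Id2, Id3 and Id4, was followed by symbol through the gene counts of 6 retinal libraries. All 4 members had a row among the 39179 gene rows of every library. The libraries came from retinas of newborn mice at postnatal day 0.5, of a mixed, mainly CD-1 background. The 3 control mice carried Lhx2 lox/lox, floxed Lhx2 alleles with no Cre named (the series text calls them wild type), and the 3 conditional knockout (cKO) mice carried Lhx2 lox/lox with Pdgfrα-Cre. Lhx2 encodes a LIM homeodomain factor that acts in progenitors of the eye. The Cre recombinase is driven by regulatory sequence of Pdgfra and deletes floxed alleles only in cells where it is made and in their descendants. The study asks what Lhx2 does in the formation of Müller glia, the main glial cells of the retina. The libraries keep the numbers of their labels, as controls 2, 3 and 4, and cKO 1, 2 and 3.

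Id proteins hold a helix-loop-helix (HLH) dimer domain but lack the basic region that touches DNA. They pair with E proteins, the broadly expressed basic HLH (bHLH) factors, and so keep them from pairing with tissue-restricted bHLH activators and from binding DNA. In the nervous system Id genes are known as targets of bone morphogenetic protein (BMP) and SMAD signalling, as brakes on neuronal differentiation, and as genes of progenitors and glia. In blood vessels Id1 and Id3 are also genes of endothelial cells.

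The coding stretch of the dimer domain is shown because it is what makes these 4 genes a family. It is the window of 45 codons with most residues shared by all members, read from GENCODE transcripts on GRCm38 and written 5′ to 3′ on the coding strand, with capitals for bases that are the same in all 4.
Id1: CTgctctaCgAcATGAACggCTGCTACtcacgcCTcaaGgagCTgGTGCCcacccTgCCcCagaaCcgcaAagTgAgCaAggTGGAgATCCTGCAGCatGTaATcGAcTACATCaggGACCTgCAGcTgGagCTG
Id2: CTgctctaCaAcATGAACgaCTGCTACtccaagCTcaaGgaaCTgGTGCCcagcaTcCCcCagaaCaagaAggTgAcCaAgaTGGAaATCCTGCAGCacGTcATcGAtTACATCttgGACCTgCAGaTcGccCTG
Id3: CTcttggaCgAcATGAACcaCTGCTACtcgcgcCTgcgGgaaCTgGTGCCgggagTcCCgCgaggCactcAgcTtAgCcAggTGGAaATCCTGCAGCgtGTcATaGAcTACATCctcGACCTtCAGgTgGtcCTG
Id4: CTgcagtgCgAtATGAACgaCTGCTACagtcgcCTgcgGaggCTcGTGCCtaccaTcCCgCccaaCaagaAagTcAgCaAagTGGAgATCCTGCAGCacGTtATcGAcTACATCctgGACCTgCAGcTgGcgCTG
The windows lie in the first exon of each gene, at chr2:152736512-152736646 (plus strand, codons 58 to 102 of Id1), chr12:25095774-25095908 (minus strand, codons 35 to 79 of Id2), chr4:136143996-136144130 (plus strand, codons 40 to 84 of Id3) and chr13:48261687-48261821 (plus strand, codons 64 to 108 of Id4). Of the 135 bases 76 (56.3%) were the same in all 4 genes, and 24 of the 45 encoded residues. Id1 and Id2 shared the most bases, 109 (80.7%), and Id1 and Id3, like Id3 and Id4, the fewest, 94 (69.6%). Over whole transcripts the longest run of identical bases between any 2 members was 19, between Id2 and Id3, so the members share only short stretches.

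Before the members' values, 3 properties of the libraries bear on them. Reads on genes came to 31483170 to 66947478 per library. The libraries fell into 2 sets that cross genotype, split by the share of deposited counts that matched more than 1 gene. This ambiguous share was 3.13 to 3.20% in set A (control 2, cKO 1 and cKO 2) and 2.63 to 2.69% in set B (control 3, control 4 and cKO 3). Mitochondrial transcripts made up 1.15 to 1.79% of the reads on genes in the former and 7.14 to 9.55% in the latter, and the labels name no batch. Controls 2 and 4 held Y-linked transcripts (215 and 375 CPM, reads scaled to library depth, summed over 4 genes) and the other 4 libraries did not (at most 0.195 CPM), so within set A sex and genotype cannot be told apart. Control 3 was the only control without them, and no cKO library held them. This limits every fit with sex as a term, which leaves 2 residual degrees of freedom. Lhx2 itself, the targeted gene, stood at 399, 266 and 258 CPM in controls 2, 3 and 4, compared with 252, 287 and 224 CPM in cKO 1, 2 and 3. Its log2 fold change was -0.40 (SE 0.10, adjusted p = 0.0338) in edgeR with library set as a term, and its adjusted p was 0.817 without that term. A count over the whole gene can also take in exons outside the floxed part, and bulk retina also holds cells without the Cre. How far the floxed part was lost was not tested.

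Id1 was lower in every cKO retina than in every control, and Id2 was lower in the cKO retinas within each library set. Id3 was lower by a smaller margin that did not pass the threshold, and Id4 did not pass in either direction. With library set as a term in edgeR's quasi-likelihood test, 2 of the 4 members fell and 0 were higher at a Benjamini-Hochberg adjusted p under 0.05. Of all 16691 genes tested in that fit 5.63% fell and 6.36% rose (939 and 1062 genes, against 1672 and 1204 in DESeq2). All 4 members passed the filter on low counts. The median log2 fold change was -0.85 over the 4 members and -0.00098 over all genes. Without the term 0 of the 4 passed, in a fit where 0.00% of all genes fell and 0.216% rose, and where 461 genes were lower and 831 higher at an unadjusted p under 0.05. In bulk retina fewer cells that express a gene and less RNA per cell cannot be told apart.

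**Figure D1:**
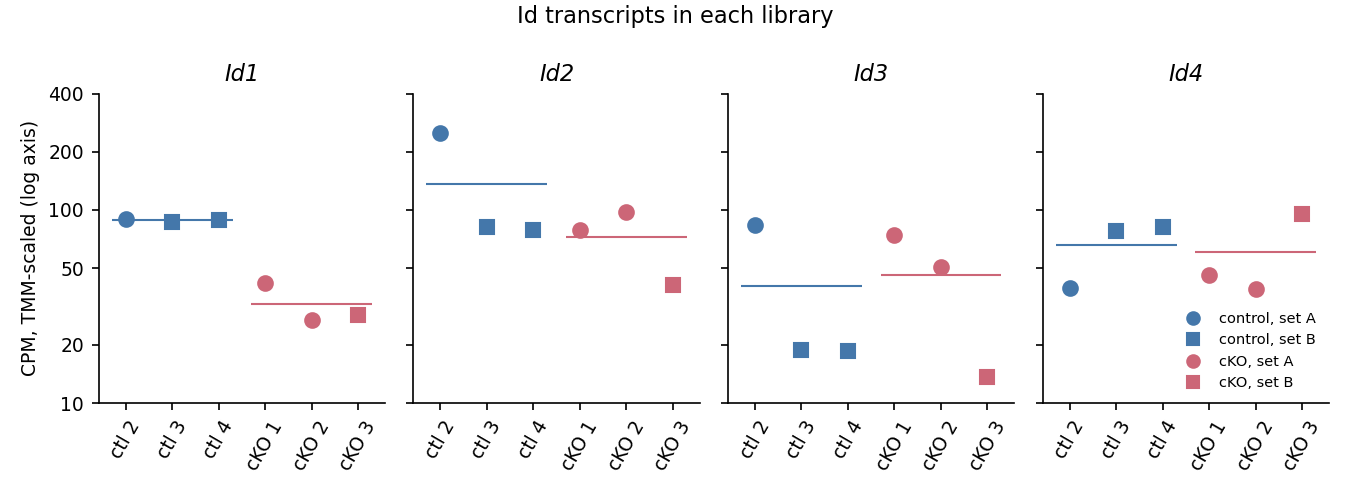
TMM-scaled CPM of Id1 to Id4 (vertical log axis) in each of the 6 libraries, with blue for controls, red for cKO, circles for set A, squares for set B and a line at each group mean. Id1 sits near 88 CPM in all controls and at 27.0 to 41.7 CPM in all cKO libraries, while Id2, Id3 and Id4 also split by shape.

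Id1 (ENSMUSG00000042745; GRCm38 chromosome 2, 152736251 to 152737410, plus strand) encodes an inhibitor that is abundant in dividing progenitors and in endothelium. It was counted at 89.5, 87.1 and 88.6 CPM in controls 2, 3 and 4, compared with 41.7, 27.0 and 28.7 CPM in cKO 1, 2 and 3. The highest cKO value was thus below the lowest control, and the controls of the 2 sets, and those with and without Y-linked transcripts, lay between 87.1 and 89.5 CPM. Of all genes tested, 5.54% had every cKO library below every control and 8.38% every cKO library above. The log2 fold change with library set was -1.50 (SE 0.16, 95% interval -1.86 to -1.13, adjusted p = 0.00114, edgeR), or 2.82-fold lower, with means of 88.4 ± 1.24 and 32.5 ± 8.06 CPM (SD, n = 3). Of the 16691 fitted fold changes it was the 38th from the most negative. The difference was -1.41 within set A and -1.61 within set B, and -1.45 with genotype alone (SE 0.22, adjusted p = 0.104, edgeR). With sex added to the model it was -1.53 (adjusted p = 0.0454, edgeR).

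Id2 (ENSMUSG00000020644; chromosome 12, 25093799 to 25097140, minus strand) encodes the member known also for binding the retinoblastoma protein. Its level was 250.5 CPM in control 2, against 81.6 and 78.4 CPM in controls 3 and 4. In the cKO libraries it was 78.9 CPM in cKO 1, 97.2 CPM in cKO 2 and 40.7 CPM in cKO 3. The groups overlapped over both sets but not within either: both cKO libraries of set A lay below the control of set A, and the cKO library of set B below both controls of set B. Id2 fell by 1.25 on the log2 scale with library set (SE 0.13, 95% interval -1.55 to -0.95, adjusted p = 0.00103, edgeR), or 2.38-fold. The difference was -1.52 within set A and -0.97 within set B. The test of that gap, the interaction of set and genotype in edgeR, gave an unadjusted p of 0.0318 and an adjusted p of 0.975, in a test that called 0.0240% of all genes. Without control 2 the difference came from set B alone, at -0.98 (adjusted p = 0.0113, edgeR). With genotype alone Id2 did not pass (-0.92, SE 0.55, adjusted p = 0.803, edgeR), nor with sex added (-1.16, adjusted p = 0.0532, edgeR).

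Id3 (ENSMUSG00000007872; chromosome 4, 136143497 to 136145755, plus strand), the other member tied to endothelium and to BMP responses, stood at 84.0 CPM in control 2 and at 18.8 and 18.7 CPM in controls 3 and 4. In the cKO libraries it was 74.2, 50.7 and 13.7 CPM. Within each set the cKO libraries were again the lower ones, by 0.45 on the log2 scale in both, although the group means went the other way, 40.5 ± 37.6 CPM for controls but 46.2 ± 30.5 CPM for cKO (SD, n = 3). The log2 fold change with library set was -0.44 (SE 0.14, 95% interval -0.76 to -0.12, adjusted p = 0.0809, edgeR) and did not pass. It passed without cKO 1 (-0.59, adjusted p = 0.00433, edgeR), with no filter on low counts (-0.47) and in DESeq2 (-0.48, adjusted p = 0.0213). With genotype alone its sign turned, to 0.19 (SE 0.80, adjusted p = 0.937, edgeR). A position below every control within each set, as Id1, Id2 and Id3 had, was held by 23.8% of all genes tested.

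Id4 (ENSMUSG00000021379; chromosome 13, 48261228 to 48266026, plus strand) encodes the member known from neural precursors and astrocyte lineages. It was counted at 39.3, 77.8 and 81.3 CPM in controls 2, 3 and 4, compared with 46.2, 38.9 and 95.5 CPM in cKO 1, 2 and 3. The cKO libraries of set A lay on both sides of their control, and the one of set B lay above both of its controls. The log2 fold change was 0.19 with library set (SE 0.10, 95% interval -0.03 to 0.41, adjusted p = 0.250, edgeR) and -0.13 with genotype alone (adjusted p = 0.916, edgeR). The interval with library set leaves out a fall of the size seen for Id1 or Id2. The minus-strand gene A330033J07Rik overlaps Id4 and held 20 to 38 reads per library against 1797 to 2806 on Id4. The smallest count of any member was 402 reads, for Id3 in cKO 3.

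**Figure D2:**
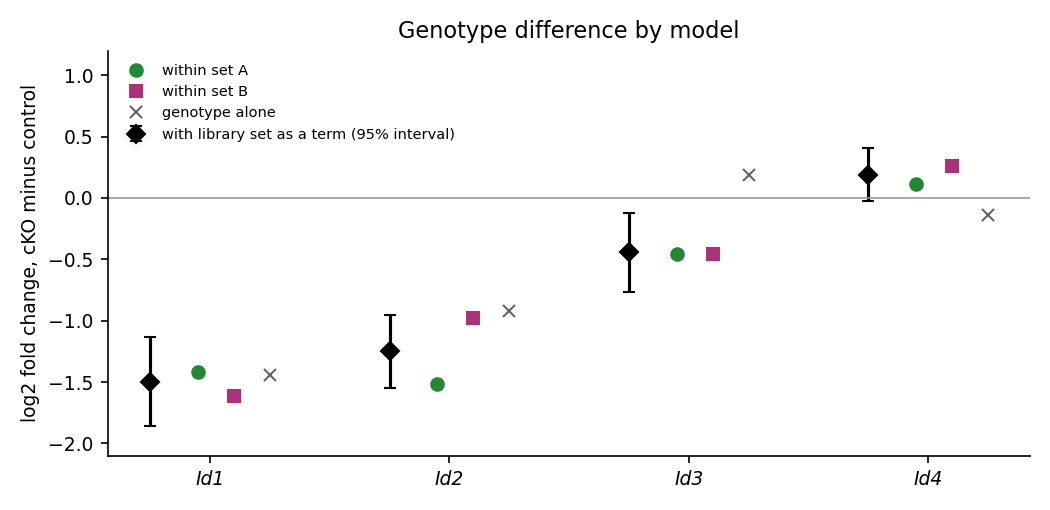
Log2 fold change of each member, cKO minus control, as fitted with library set as a term (diamonds with 95% intervals), within set A (circles), within set B (squares) and with genotype alone (crosses). Id1 lies between -1.61 and -1.41 by all 4 measures, and the crosses for Id3 and Id4 lie across 0 from the other marks.

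Id2, Id3 and Id4 also differed between the library sets, while the set difference of Id1 did not pass. In the fit with genotype, 63.7% of all genes differed between the sets, 31.2% being lower in set B and 32.5% higher. For Id3 the log2 difference of set B from set A was -2.17 (SE 0.14, adjusted p = 3.63e-06, edgeR), which is a ratio of set A to set B of 4.47 among controls and 4.56 among cKO libraries. For Id2 it was -1.39 (SE 0.13, adjusted p = 2.27e-05, edgeR), with ratios of 3.13 among controls and 2.16 among cKO libraries. Id4 went the other way, at 1.09 (SE 0.10, adjusted p = 1.55e-05, edgeR), with ratios of set B to set A of 2.03 and 2.24. For Id1 it was -0.14 (SE 0.16, adjusted p = 0.467, edgeR).

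Levels of different members were compared per kb of exon sequence, since the transcripts differ in length (1160 bases of exon for Id1, 2438 for Id2, 1791 for Id3 and 3849 for Id4). In control 2 the order was Id2, Id1, Id3 and Id4, at 103, 77.2, 46.9 and 10.2 CPM per kb. In controls 3 and 4 it was Id1 (75.1 and 76.4 CPM per kb), Id2 (33.5 and 32.2), Id4 (20.2 and 21.1) and Id3 (10.5 and 10.4). By mean level per kb in controls Id1 ranked 500th of 16502 tested genes with a known length, Id2 756th, Id3 2382nd and Id4 3178th. The control means were 76.2 ± 1.07 CPM per kb for Id1, 56.1 ± 40.4 for Id2, 22.6 ± 21.02 for Id3 and 17.2 ± 6.06 for Id4 (SD, n = 3). These SDs take in the difference between the library sets. Id1 and Id2 stood in one order in control 2 and in the other in controls 3 and 4, as did Id3 and Id4. In the cKO libraries Id3 led in cKO 1 (41.4 CPM per kb) and Id2 in cKO 2 (39.9), while in cKO 3 Id4 (24.8) and Id1 (24.7) were level.

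As a share of the family's summed level per kb, Id1 was lower, and Id3 and Id4 higher, in the cKO libraries within each set. In set A Id1 made up 32.6% of the sum in control 2 and 29.5 and 22.9% in cKO 1 and 2. In set B Id1 made up 53.9 and 54.5% in controls 3 and 4 and 33.5% in cKO 3. Over both sets the mean share of Id1 was 47.0 ± 12.5% in controls and 28.6 ± 5.35% in cKO (SD, n = 3), and the groups overlapped. Id3 took 19.8% of the sum in control 2 and 34.0 and 27.9% in cKO 1 and 2, and 7.56, 7.45 and 10.3% in controls 3 and 4 and cKO 3. Id4 took 4.31% in control 2 and 9.87 and 9.96% in cKO 1 and 2, and 14.5, 15.1 and 33.6% in the libraries of set B in the same order. Id2 also had the lower share in the cKO libraries within each set, but by little in set B. It took 43.4% in control 2 and 26.6 and 39.2% in cKO 1 and 2. In set B it took 24.0 and 22.9% in controls 3 and 4 and 22.6% in cKO 3. Over both sets the mean share of Id2 was 30.1 ± 11.5% in controls and 29.5 ± 8.70% in cKO (SD, n = 3). Shares sum to 100%, so a lower share of one member raises those of the others.

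**Figure D3:**
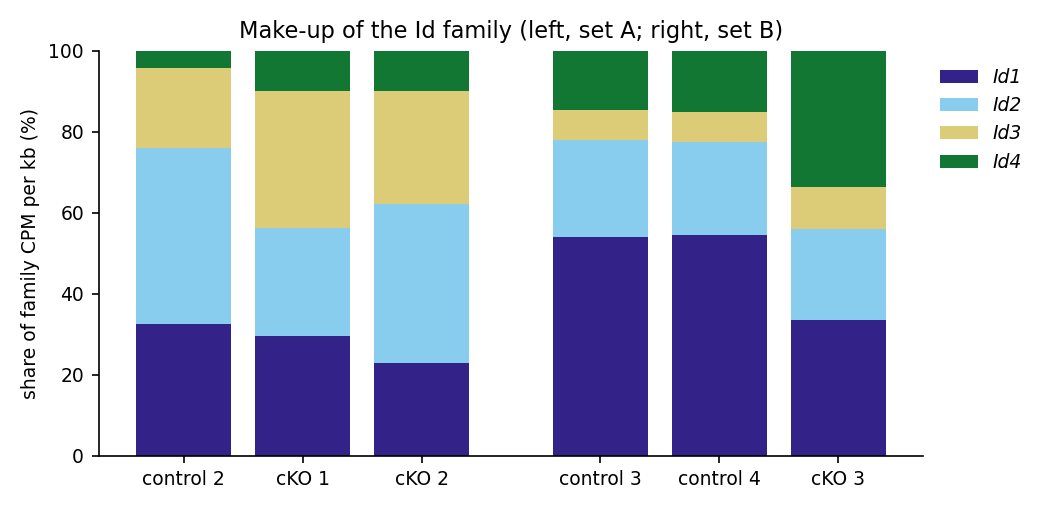
Share of each member in the summed CPM per kb of the Id family, as stacked bars that add up to 100%, with the 3 libraries of set A on the left and those of set B on the right. The Id1 part is smaller in the cKO bars than in the control bars of the same set, 22.9 to 29.5% against 32.6% on the left and 33.5% against 53.9 and 54.5% on the right.

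Ratios of 2 members within a library do not depend on how libraries are scaled, and 6 such ratios were compared. Id1 over Id4 was lower in every cKO library than in every control: the log2 ratio of reads was 1.19, 0.16 and 0.12 in controls 2, 3 and 4 and -0.15, -0.53 and -1.73 in cKO 1, 2 and 3. The difference in means was -1.30 (exact 2-sided permutation p = 0.1, and 0.3 adjusted over the 6 ratios), being -1.53 in set A and -1.88 in set B. Id2 over Id3 was also apart in the 2 groups, at 1.58, 2.11 and 2.07 in controls and 0.09, 0.94 and 1.57 in cKO, a difference of -1.05 (exact permutation p = 0.1, adjusted 0.3). With 3 libraries against 3 this test cannot go below 0.1, so no ratio could pass. Id1 over Id3 differed by -0.96 within set A and -1.16 within set B, and Id2 over Id4 by -1.63 and -1.24. Id1 and Id2, the members that fell, kept no common order: their ratio changed by 0.10 within set A and -0.64 within set B. Id3 over Id4 was -0.57 and -0.72 within the sets but 0.44 over all libraries.

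The sum of the 4 members per kb was 237, 139 and 140 CPM per kb in controls 2, 3 and 4 and 122, 102 and 73.9 in cKO 1, 2 and 3, so that the groups did not overlap. The E proteins, the partners that Id proteins hold back, moved less. Tcf3 was at 267, 155 and 163 CPM in the control retinas against 204, 196 and 130 CPM in the cKO retinas, lower in the cKO libraries only within the sets, and fell with library set as a term (edgeR log2 change -0.36 with SE 0.08, adjusted p = 0.0193). The call was lost on leaving out any single library but cKO 1, and on adding sex as a term. Tcf4 had 280, 498 and 491 CPM in the control retinas against 224, 312 and 466 CPM in the cKO retinas, with -0.08 (SE 0.12, adjusted p = 0.752, edgeR). Tcf12 had 281, 257 and 284 CPM in the control retinas against 227, 268 and 334 CPM in the cKO retinas, with 0.06 (SE 0.12, adjusted p = 0.808, edgeR). The Id sum over the E protein sum, both per kb, was 2.51, 1.90 and 1.83 in controls and 1.66, 1.31 and 1.05 in cKO. With the longest transcript as each gene's length the ratio was 1.67, 0.9996 and 0.963 in controls and 1.11, 0.842 and 0.535 in cKO, and the groups overlapped over both sets but not within either.

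The tissue-restricted bHLH activators, whose pairing with E proteins Id proteins limit, moved in both directions. Of 16 listed genes 15 were tested, and 3 fell and 3 rose, with a median log2 fold change of -0.30. Of all genes tested in that fit 5.63% fell and 6.36% rose, and the counts of every list below stand beside these shares. Olig2, of neurogenic progenitors, had 70.0, 44.97 and 44.3 CPM in the control retinas against 35.2, 40.1 and 29.5 CPM in the cKO retinas, every cKO library being below every control. Its log2 change was -0.75 (SE 0.10, adjusted p = 0.00278, edgeR). Ptf1a, which directs amacrine and horizontal fates, fell by 0.79 (SE 0.19). Neurod2 rose from 6.48 to 17.5 CPM (log2 change 1.46 with SE 0.20) and Neurod6 from 0.586 to 2.50 CPM (2.54, SE 0.30), both factors of maturing neurons. Bhlhe23 was at 0 to 0.0437 CPM in controls and 0.250 to 0.374 CPM in cKO, and passed as higher. It passed the filter on low counts only through the cKO libraries, so only a rise could be called. With genotype alone 0 of the 15 passed.

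The other repressors of this superfamily were 8 genes, the Hes and Hey genes, which include effectors of Notch, with Bhlhe40 and Bhlhe41. Of the 8, all tested, 2 fell, both Hes or Hey genes, and 1 rose, with a median of -0.32. Hes1 was at 93.4, 68.9 and 60.9 CPM in the control retinas against 59.2, 54.0 and 34.3 CPM in the cKO retinas (edgeR log2 change -0.82 with SE 0.10, adjusted p = 0.00185). Hey1 fell by 0.50 (SE 0.11) and Bhlhe40, a stress and clock related repressor, rose by 0.71 (SE 0.19). With genotype alone 0 of the 8 passed.

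BMP and SMAD signalling is a known driver of Id transcription. Transcripts of its genes and targets were read from 5 lists, and 0 members of these lists passed with genotype alone. Activity of the pathway was not measured. With library set as a term 5.63% of all genes tested fell and 6.36% rose. Of 11 ligands of the BMP and TGF-beta families 2 fell and 0 rose, with a median of -0.14: Bmp3, from 1.82 to 0.743 CPM (log2 change -1.19 with SE 0.32), and Tgfb3 (-0.38, SE 0.10). Bmp4 and Bmp7, which pattern the eye, gave -0.77 (SE 0.74) and -0.10 (SE 0.17) and did not pass. Of 12 receptors 4 rose and 0 fell, with a median of 0.16. The type I BMP receptor Bmpr1b rose from 8.27 ± 3.66 to 18.6 ± 8.49 CPM (edgeR log2 change 1.497 with SE 0.19, adjusted p = 0.00267; SD, n = 3). Eng, Acvrl1 and Tgfbr2, which encode receptors found on endothelium, rose by 2.02 (SE 0.29), 1.14 (SE 0.30) and 0.95 (SE 0.24).

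Among the signal carriers, 0 of 8 SMAD genes passed, while 3 had an unadjusted p under 0.05 and DESeq2 called 2. The inhibitory Smad6, itself a BMP target, had -0.62 (SE 0.17, adjusted p = 0.05003, edgeR) and Smad7 -0.41 (SE 0.13, adjusted p = 0.0745, edgeR). Of 12 inhibitors only Fst, the activin and BMP trap follistatin, passed, with a rise of 0.94 (SE 0.21). Of 7 tested among 9 other BMP and SMAD targets 1 fell and 2 rose. Atoh8, a bHLH gene of this list, was at 32.9, 10.4 and 10.7 CPM in the control retinas against 13.9, 17.8 and 5.28 CPM in the cKO retinas (edgeR log2 change -1.03 with SE 0.13, adjusted p = 0.00265). Dlx1, of amacrine and ganglion cell precursors, rose by 0.69 (SE 0.15), and Dlx5 was at 0 to 0.0898 CPM in controls and 0.411 to 0.681 CPM in cKO. Dlx5 passed the filter on low counts only through the cKO libraries, so only a rise could be called for it.

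Id2 is known to bind the retinoblastoma protein, so the genes of that cell cycle axis were listed as well. Of 14 tested 6 fell and 2 rose, with a median of -0.26, beside 5.63% and 6.36% of all genes tested. Ccnd1, a D-type cyclin of dividing progenitors, fell by 0.95 in log2 units (SE 0.12), Cdkn2c by 0.68 (SE 0.10), E2f2 by 0.84 (SE 0.14) and Rbl1, a relative of Rb1, by 0.63 (SE 0.11). Rb1 itself gave 0.09 (SE 0.09, adjusted p = 0.625, edgeR). Cdkn1c, which encodes the CDK inhibitor p57, was at 52.2, 57.3 and 60.8 CPM in the control retinas against 248, 197 and 304 CPM in the cKO retinas, every cKO library being above every control. Its rise was 2.23 (SE 0.11, adjusted p = 1.09e-05, edgeR) and was the only gene of these lists to pass with genotype alone (adjusted p = 0.0440, edgeR). Ccnd2 rose by 1.43 (SE 0.14).

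Most of these counts changed when some single library was left out, and so did those over all genes. In the main fit 939 genes fell and 1062 rose. The falls and rises were 168 and 552 without control 2, and 134 and 176 without cKO 3. They were 452 and 545 without control 3, and 63 and 173 with sex added. Each of these fits left 2 residual degrees of freedom, against 3 in the main fit. Without control 2, falls came to 1 bHLH activator, 1 gene of the Hes, Hey and Bhlhe repressors, 0 ligands and 1 gene of the retinoblastoma axis, and rises to 2 receptors and 0 inhibitors. Without cKO 3 the falls were 2, 1, 0 and 1, and the rises 0 and 0. Without control 3, 2 receptors rose, and 4 genes of the axis fell. With sex added 2 activators (falls), 1 gene of the Hes, Hey and Bhlhe repressors (a fall) and 1 gene of the axis (a rise) passed. The fall of Id1 passed in all 14 fits that held library set as a term, that of Id2 in 13 of them, and that of Id3 in 3.

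**Figure D4:**
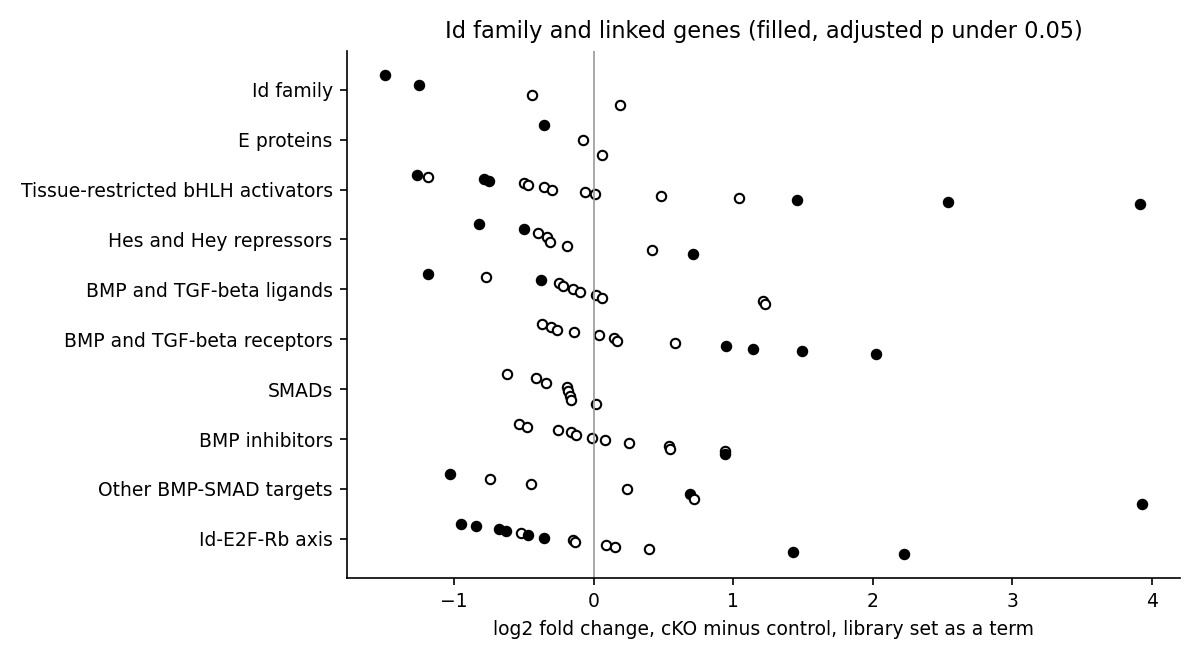
Log2 fold change, cKO minus control with library set as a term, of every tested gene in the Id family and 9 lists of partner, pathway and cell cycle genes, 1 point per gene and filled where the adjusted p was under 0.05. Id1 (-1.50) and Id2 (-1.25) are the filled points at the far left of the first row, and 0 of the 8 SMAD points are filled.

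Markers of 12 cell types were read in the same fit, and those of several types moved with genotype. The counts of each list stand beside 5.63% of all genes tested that fell and 6.36% that rose. Of 10 retinal progenitor markers 7 fell and 1 rose (Sfrp2), and their summed level was 6939 to 7294 CPM in controls and 3880 to 5526 CPM in cKO. Of 12 endothelial markers 9 rose and 1 fell. Their sum, 543 to 708 CPM in controls and 285 to 506 CPM in cKO, was mostly Kdr (509 to 683 and 240 to 424 CPM), which retinal progenitors also express and which was the member that fell. The endothelial genes Pecam1 and Cdh5 rose, from 1.99 to 5.84 and from 2.96 to 10.7 CPM. Of 10 Müller glia markers 2 rose and 2 fell, with sums of 2512 to 3346 and 2748 to 3521 CPM, and of 9 astrocyte markers 1 rose, with sums of 250 to 425 and 296 to 441 CPM. Of 12 lens markers 10 passed the filter, and these 10 all rose, with sums of 2.24 to 5.35 CPM in controls and 854 to 2308 CPM in cKO. Some, such as Cryba2, Crygs and Mip (0 to 0.197 CPM in controls), passed the filter only through the cKO libraries. For these only a rise could be called. The same holds for Hbb-bt of blood (0 to 0.131 CPM in controls) and Erg of endothelium (0.0656 to 0.232 CPM in controls). Of 10 retinal ganglion cell markers 9 rose, with sums of 1718 to 1839 CPM in controls and 2490 to 2850 CPM in cKO. Of 10 microglia markers 8 rose, with sums of 19.5 to 45.4 and 53.3 to 103 CPM, and of 9 markers of pericytes and smooth muscle 5 rose, with sums of 44.6 to 54.0 and 72.1 to 156 CPM. In each of these 3 lists the groups' sums did not overlap, and neither did those of progenitors, endothelium, lens and blood. Of single genes tested, 5.54% had every cKO library below every control and 8.38% every cKO library above. Among photoreceptor precursors 2 of 10 markers fell and 1 rose, among amacrine and horizontal cells 1 of 10 rose, in blood 2 of 4 tested rose, and in pigment epithelium 0 of 8 tested passed. With genotype alone 8 lens markers and 1 of amacrine and horizontal cells rose, and 0 markers of the other 10 lists passed. No marker had 0 reads in every library, and Foxe3 and Lim2 of the lens list had 0 reads in all controls. The part of any of these cell types in the Id differences was not tested.

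The genes with profiles most like each member over the 6 libraries were found by the root mean square difference of log2 CPM, each gene centred on its own mean, among 11024 genes with a mean of at least 5 CPM. For Id1 they were Ust (0.28), Hs3st4 (0.29) and Etv4 (0.32), which encode 2 sulfotransferases of matrix sugars and an FGF-responsive ETS factor. Hs3st4 was at 82.6, 87.4 and 89.8 CPM in the control retinas against 38.5, 42.3 and 39.0 CPM in the cKO retinas, so it held the same level in both sets as Id1 did. For Id2 they were Atoh8 (0.21), Cox4i2 (0.24) and Rhoj (0.26), for Id3 Dpm3, Ndufaf8 and Rps19 (0.14 each), and for Id4 Zmym6 (0.04), Col4a3bp (0.06) and Dnah7b (0.07). The profiles compared hold both the difference between genotypes and that between library sets, so likeness in either is there by choice. The 3 genes nearest Id3 and the 3 nearest Id4 did not pass for genotype with library set as a term (adjusted p = 0.112 to 0.516, edgeR). Between members the same measure ran from 0.70 (Id2 and Id3) to 1.55 (Id3 and Id4).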

How the data were processed

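Bulk RNA-seq of 6 retinas was deposited as 1 table per library of raw counts, with 1 row for each Ensembl identifier. The deposited counts were made with STAR and HTSeq on GRCm38, per the submitters' processing notes, which also name edgeR; the sources used here give neither versions nor the strand setting. Rows that name no gene held 26.4 to 28.8% of counts and were left out. Symbols, exon lengths and transcripts came from GENCODE vM21 (37607 of 39179 identifiers matched).

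Analysis used R 4.3.3 and edgeR 4.0.16: filterByExpr, TMM, glmQLFit and glmQLFTest over 16691 genes, with genotype and library set as terms, 3 residual degrees of freedom and a threshold of 0.05. Set A had over 2.9% of all counts in the ambiguous row. SEs came from the fold change and F. Named genes were the members, list members past the threshold (up to 4 each way), the E proteins and the 3 nearest profiles; 1 called list member is not reported here, and others were chosen after their values were seen. The members, lists, library sets and tests were chosen with earlier results of these data known. The labels do not say that libraries came from separate litters, so p-values measure the spread between these libraries. Alternatives were DESeq2 1.42.0, limma 3.58.1 (voom), other scalings, filters and terms, and leaving out each library.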

Additional observations from a re-analysis of the deposited data

How the results depend on the processing

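With genotype alone 0 Id members fell and the log2 fold changes were -1.45 (Id1), -0.92 (Id2), 0.19 (Id3) and -0.13 (Id4), with 0 falls and 36 rises over all genes. In that model, leaving out 1 library gave 0 members and -1.67 to -1.33 for Id1 (-1.43, -1.46 and -1.45 without controls 2, 3 and 4, and -1.35 without cKO 3), -1.19 to -0.14 for Id2 (-0.14 and -1.18 without controls 2 and 3, -0.99 and -0.62 without cKO 1 and 3), -0.33 to 1.30 for Id3 (1.30 without control 2, 0.12 and 0.64 without cKO 2 and 3) and -0.63 to 0.10 for Id4 (-0.40 and -0.024 without controls 2 and 3, -0.63 without cKO 3). Over all genes it gave 0 to 3 falls and 0 to 34 rises, with 3 falls without control 3, 2 falls and 34 rises without cKO 3 and 8 rises without control 2. With library set kept, leaving out 1 library gave -1.67 to -1.36 for Id1, -1.48 to -0.98 for Id2, -0.59 to -0.33 for Id3 and 0.14 to 0.26 for Id4, with 2 to 3 members falling, 134 (without cKO 3) to 1336 falls over all genes and 176 (without cKO 3) to 1371 rises. Without control 2 there were 168 falls and 552 rises, without control 3 452 and 545, and without control 4 631 and 637. When sex was added Id2 was -1.16, 1 member fell, and 63 genes fell and 173 rose. Id3 passed with no filter (-0.47; 1592 genes fell) and in DESeq2 (-0.48; 1672 fell). The label number as a replicate block, in place of library set, gave -0.61 for Id3 (adjusted p = 0.00902, edgeR) and left 1 residual degree of freedom. Only 2 numbers recur in both groups, and their libraries share a set (correlation of deviations 0.77 and 0.67), as do unlike-numbered libraries of 1 set (0.67 and 0.71), so the numbers were not taken as pairs. The cause of these changes was not tested.

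Leaving out 1 library moved the log2 ratios of members to -1.23 to -0.31 (Id1 over Id2), -2.45 to -1.37 (Id1 over Id3), -1.62 to -0.83 (Id1 over Id4), -1.41 to -0.67 (Id2 over Id3), -1.13 to 0.28 (Id2 over Id4) and -0.19 to 1.55 (Id3 over Id4). Within sets, Id1 over Id2 turned to 0.10 in set A and Id3 over Id4 to -0.57 and -0.72. Shares, cKO minus control, ran from -25.6 to -14.6 points for Id1, -5.53 to 5.98 for Id2 (5.98 without control 2), 7.52 to 19.4 for Id3 and -1.38 (without cKO 3) to 10.5 for Id4. Each member held at least 402 reads in every library. Id3 held 402 to 630 reads in the libraries of set B and 3670 to 4155 in those of set A. The part of depth was not tested. The sets leave 1 control in set A and 1 cKO in set B, which limits every difference given within a set.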

Other observations

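The gene that follows Id1 on chromosome 2 also fell. Cox4i2, which encodes an alternative subunit of cytochrome c oxidase, starts 16763 bases beyond the end of Id1, on the same strand (GRCm38 chromosome 2, 152754173 to 152765037). It was at 49.7, 23.3 and 19.4 CPM in controls 2, 3 and 4, compared with 20.7, 21.7 and 7.05 CPM in cKO 1, 2 and 3, lower in the cKO libraries within each set. With library set as a term its log2 fold change was -1.39 (SE 0.13, adjusted p = 0.000483, edgeR), and with genotype alone its adjusted p was 0.803. The other tested genes within 100 kb of Id1 did not pass: H13 gave 0.18 (SE 0.08), Mcts2 0.05 (SE 0.13), Gm26841 0.10 (SE 0.68) and Bcl2l1, a survival factor, 0.06 (SE 0.09). Within the same distance of Id3, E2f2 fell by 0.84 in log2 units (SE 0.14, adjusted p = 0.00696, edgeR), 26639 bases away, while Rpl11 (-0.07, SE 0.14) and Asap3 (-0.18, SE 0.13) did not pass. The single tested neighbour of Id2, Kidins220, gave 0.27 (SE 0.08, adjusted p = 0.0507, edgeR). These genes were looked at after the values of the members were known.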
